A study of Mus musculus with 12 samples.

Results

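Natural killer (NK) cells sorted from lymph nodes that had been seeded by diffuse large B cell lymphoma (DLBCL) through the lymph were compared with NK cells from nodes without tumor. The comparison took 8 of the 12 RNA sequencing libraries of the study. The lymphatic group (4 libraries) came from nodes of a mouse model in which the lymphoma spreads by the lymphatic route, and the tumor-free group (4 libraries) from nodes of C57BL/6J mice without tumor. The remaining 4 libraries, from a model of spread through the blood (hematogenous group), entered the same statistical fit and served to test directly where the lymphatic group differed from the other tumor-bearing group. All groups shared the tissue (lymph node) and the sorted cell type (NK cell). Library groups were chosen by the titles of the samples alone, and 16016 genes that passed a filter on low counts were tested. The age and sex of the mice, the lymphoma cells, the time points and the gate of the sort are not stated in the labels. Samples of a group are numbered 1 to 4 and are not said to be separate animals. The p-values therefore measure only how these samples vary, which may be technical.

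NK cells are innate lymphocytes that kill malignant or virus-infected cells with perforin and granzymes and secrete interferon gamma and chemokines. Type I interferons, which many cells release when they sense foreign or misplaced nucleic acid, act on NK cells through a receptor that activates a complex of transcription factors. This complex binds a short promoter element, the interferon-stimulated response element (ISRE), and switches on a large set of antiviral genes. Engagement of activating receptors on NK cells, among other signals, raises a different set within a short time, the early response genes. These encode transcription factors of the AP-1, EGR and NR4A families and the inhibitors that limit them.

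Depth was lower in 3 of the tumor-free libraries than in all lymphatic ones. The lymphatic libraries held 17672832 to 43494812 gene counts, and the tumor-free libraries 8355021, 6654215, 23674960 and 6803900. At an equal depth of 6654215 counts tumor-free 1, 2 and 4 had a count on 14168 to 14756 genes, tumor-free 3 on 20889 and the lymphatic libraries on 18377 to 21890. Levels are given as CPM, the reads of a gene relative to the library total after scaling by TMM (trimmed mean of M values). No difference in 8 library measures passed after adjustment (two-sided exact permutation tests, adjusted p of at least 0.229, where 4 against 4 cannot give an unadjusted p below 0.0286). The percentage of globin counts did not overlap between the groups and reached that lowest p, and gene counts gave 0.0571 by the same test. Both stood at 0.229 after adjustment. A lone measure could therefore not pass, and these tests do not show that the groups were alike. Tumor-free 1, 2 and 4 also stood apart on the first principal component, at -144.3 to -96.1 against 7.63 for tumor-free 3 and 17.3 to 36.7 for the lymphatic libraries. The values of each library are therefore given beside the tests, and the part of depth and detection in the results was not tested beyond a fit with every library thinned to 6654215 counts, which called 377 genes where the fit reported here called 439.

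In the lymphatic libraries, 372 of the 16016 genes were higher and 67 lower than in tumor-free nodes. These 439 genes made up 2.74% of the genes tested, 2.32% for higher and 0.418% for lower genes (edgeR quasi-likelihood F test on the counts, Benjamini-Hochberg adjusted p under 0.05). The median log2 fold change was 1.18 among the higher and -0.82 among the lower genes, against 0.08 for all genes. Changes of at least 2-fold were found for 215 higher and 28 lower genes, together 1.52% of the genes tested, and of at least 4-fold for 112 and 7. Lymphatic and tumor-free libraries did not overlap for 363 of the higher and 54 of the lower genes, and for 9.9% of all genes tested. In each of 12 fits that left out 1 library, 173 of the higher and 19 of the lower genes were called again. Without lymphatic 4 the total fell to 255 genes. The number of lower genes was 27 without lymphatic 1, 43 without lymphatic 3, 35 without lymphatic 4 and 109 without hematogenous 1. It was 101 with upper quartile scaling, 108 with library size alone, 111 by limma voom, 149 with the length trend of each library removed, 155 without a filter on low counts, 219 by DESeq2 and 15 with the mean of the B cell genes as a covariate. With tumor-free 3 as the lone tumor-free library, 31 genes were called, which assumes that a lone sample varies like the other groups. With library size alone as the scaling, 73.2% of the called genes were higher, and with the length trend of each library removed 66.2%, against 84.7% in the fit reported here. The same settings moved the median of all genes from 0.08 to -0.0043 and -0.04.

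**Figure D1:**
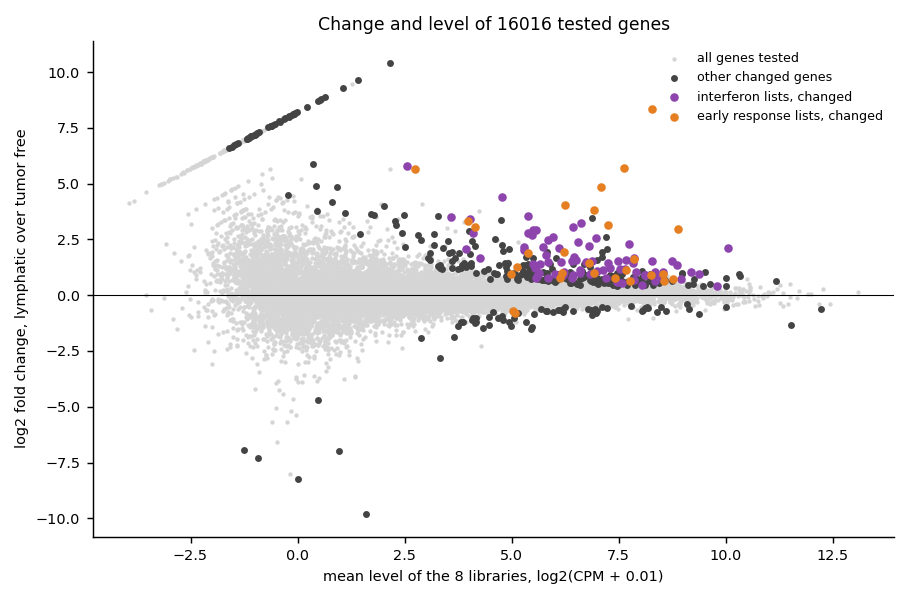
Each point is 1 of the 16016 tested genes, placed by its mean level over the 8 libraries (x axis, log2 of TMM-scaled CPM plus 0.01) and its log2 fold change in lymphatic over tumor-free libraries (y axis). Colored points are the changed genes of the interferon and early response lists, and dark points the other changed genes. Of the changed genes 372 lie above 0 and 67 below, and the straight rows of points at both edges are genes with no count in 1 of the groups.

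The sorted cells carried the genes that define NK cells in both groups. Ncr1, which encodes the activating receptor NKp46, stood at 1463, 1453, 1306 and 1265 CPM in tumor-free 1 to 4 and at 933, 1188, 1088 and 957 CPM in lymphatic 1 to 4. The libraries did not overlap, but the difference did not pass the test (log2 fold change of -0.40, SE 0.14, adjusted p = 0.166 by edgeR). It was called lower with the compared groups alone (edgeR adjusted p = 0.0492), without a filter on low counts (0.0279), without hematogenous 1 (0.0294), by DESeq2 (0.0285) and by limma voom (0.0153). Eomes, the transcription factor of mature NK cells, stood at 651, 795, 722 and 699.6 CPM in the tumor-free and 758, 839, 790.5 and 758 CPM in the lymphatic libraries, with overlapping ranges (log2 fold change of 0.13, SE 0.125, adjusted p = 0.727 by edgeR). Of 15 defining genes none was higher by edgeR, limma voom or DESeq2 (1 at an unadjusted p under 0.05), 1 was lower, and their median log2 fold change was -0.10. The number of lower genes was 2 under each other scaling, 4 with the length correction, 3 with the compared groups alone or by limma voom, 4 without a filter on low counts or by DESeq2, and 5 at an unadjusted p under 0.05. It was 0 with the B cell covariate and without tumor-free 1, tumor-free 2, lymphatic 1, lymphatic 3 or lymphatic 4, and 2 and 3 without tumor-free 3 and hematogenous 1. The gene called lower was Klrb1c, which encodes the NK1.1 receptor. It stood at 1259, 1381, 1138 and 1128 CPM in the tumor-free and 839, 938, 732 and 859 CPM in the lymphatic libraries, without overlap (log2 fold change of -0.54, SE 0.137, adjusted p = 0.0363 by edgeR), and was not called without tumor-free 1, tumor-free 2, lymphatic 1, lymphatic 3 or lymphatic 4 (adjusted p up to 0.115 by edgeR, without lymphatic 3). Against the hematogenous libraries 8 of the 15 genes were higher in the lymphatic libraries, beside 5.92% of all genes.

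Of the lists used here, those of the interferon response held the most called genes. Over 5 lists with 147 tested members, 78 (53.1%) were higher and 0 lower by edgeR (3 lower at an unadjusted p under 0.05, and 1 by both DESeq2 and limma voom), and the median log2 fold change was 0.95. Leaving out any 1 library left 64 to 81 of them higher, and the fit with the lone tumor-free 3 left 10. In the description of each gene, CPM values stand in the order of replicates 1 to 4. The count of called members of any list against tumor-free nodes stands beside 2.32% of all genes higher and 0.418% lower. Near-identical copies occur among the IFIT, GBP, Ifi200 and H2-T genes, so that reads of such copies could have been split or left out by the counting.

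The sensors of foreign nucleic acid come first in this response. Of 21 tested sensors and adaptors, 12 were higher and none lower (0 lower at an unadjusted p under 0.05 and by DESeq2 and limma voom), and 11 of the 12 were called in all fits without 1 library. Zbp1, a sensor of left-handed nucleic acid that can start cell death, rose from 91.4, 108, 76.1 and 89.2 CPM in the tumor-free to 228, 267, 320.3 and 257 CPM in the lymphatic libraries. The lowest lymphatic library was more than 2 times as high as the highest tumor-free one (log2 fold change of 1.55, SE 0.193, adjusted p = 7.4e-05 by edgeR). Eif2ak2 encodes PKR, the kinase that stops translation on double-stranded RNA. Its level was 52.5, 46.3, 66.4 and 74 CPM in tumor-free and 149, 158, 227 and 161 CPM in lymphatic libraries, again without overlap (log2 fold change of 1.53, SE 0.183, adjusted p = 5.08e-05 by edgeR). Ifi206, a member of the p200 family of DNA sensors, stood at 88.5, 104, 119.8 and 125 CPM in the tumor-free and 308, 344, 408 and 350.5 CPM in the lymphatic libraries (log2 fold change of 1.69, SE 0.181, adjusted p = 1.8e-05 by edgeR). Its relatives Ifi213, Ifi209 and Ifi203 rose by 2.30, 1.06 and 0.95 on the log2 scale, with lymphatic 3 the highest library for each. Rig-I (Ddx58), Mda5 (Ifih1) and Lgp2 (Dhx58), which detect viral RNA in the cytosol, were among the 12 as well.

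Relay and feedback of interferon signalling changed in fewer members. Of 26 tested genes 7 were higher and none lower by edgeR (3 lower at an unadjusted p under 0.05, 1 by DESeq2 and 1 by limma voom), and the median was 0.10, close to that of all genes. Stat2, a transcription factor downstream of type I interferon, rose (log2 fold change of 0.95, SE 0.181, adjusted p = 0.00441 by edgeR). Irf7, the factor that amplifies interferon production, rose from 89.2, 96.8, 101 and 117 CPM to 214, 287, 434 and 283 CPM (log2 fold change of 1.59, SE 0.284, adjusted p = 0.00528 by edgeR). Lymphatic 3 was the highest library for Irf7 and lymphatic 1 the lowest of its group. Usp18, which removes ISG15 from proteins and blocks the type I interferon receptor, showed the largest rise of the list. It stood at 16.1, 11.4, 17.7 and 30.5 CPM in the tumor-free and at 129.6, 158, 189 and 144 CPM in the lymphatic libraries, more than 4 times the highest tumor-free value in each (log2 fold change of 3.04, SE 0.286, adjusted p = 4e-06 by edgeR). Irf8 (log2 fold change of 1.34, SE 0.231, adjusted p = 0.00249 by edgeR) and Socs3, an inhibitor of cytokine receptor kinases (log2 fold change of 1.49, SE 0.269, adjusted p = 0.00282 by edgeR), rose too. By limma voom 4 genes of this list were called, and Irf7, Irf8 and Socs3 did not pass (adjusted p = 0.111, 0.075 and 0.12).

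The OAS and IFIT families, which degrade or hold back viral RNA, had the highest median of the 5 interferon lists. Of 15 tested members 10 were higher and none lower (0 lower at an unadjusted p under 0.05 and by DESeq2 and limma voom), with a median log2 fold change of 2.37. Ifit3 stood at 13, 10.9, 15.3 and 37.6 CPM in tumor-free and 141, 169, 232 and 172 CPM in lymphatic libraries (log2 fold change of 3.23, SE 0.445, adjusted p = 0.00148 by edgeR), and Ifit2 at 64.1, 53.6, 51.5 and 53.1 CPM and 142, 144, 176 and 168 CPM (log2 fold change of 1.50, SE 0.15, adjusted p = 6.43e-06 by edgeR). Neither gene overlapped between the groups. Oas1a, which makes the messenger that activates RNase L, rose from 16, 6.66, 15.2 and 9.36 CPM to 71.6, 79.6, 88.6 and 69.6 CPM (log2 fold change of 2.69, SE 0.299, adjusted p = 2.82e-05 by edgeR). Oas2 was close to 0 in tumor-free nodes, with 0, 0.148, 0.426 and 0 CPM, and stood at 7.86, 7.84, 21.2 and 9.82 CPM in the lymphatic libraries. Its rise (log2 fold change of 5.81, SE 0.763, adjusted p = 0.000133 by edgeR) was computed against that low level, and lymphatic 3 was more than 2 times as high as each other lymphatic library. Oasl2 (log2 fold change of 2.94, SE 0.392, adjusted p = 0.00027 by edgeR) and Ifit1bl1 (log2 fold change of 2.15, SE 0.206, adjusted p = 4e-06 by edgeR) rose as well.

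Other antiviral effectors made up the longest of the interferon lists, with 40 of 67 tested members higher and none lower (0 lower at an unadjusted p under 0.05 and by DESeq2 and limma voom). Slfn5, a Schlafen protein of lymphocytes, stood at 40.1, 29.6, 41.9 and 46.8 CPM in the tumor-free and 177, 171, 211 and 179 CPM in the lymphatic libraries, a separation of more than 3-fold between the closest libraries (log2 fold change of 2.22, SE 0.207, adjusted p = 3.87e-06 by edgeR). Cmpk2, a mitochondrial nucleotide kinase, rose from 16.9, 8.88, 16.6 and 28.8 CPM to 83.6, 98.3, 125 and 85.4 CPM (log2 fold change of 2.46, SE 0.3, adjusted p = 6.45e-05 by edgeR). Samhd1, which depletes the nucleotides that viruses need, was abundant in both groups, at 399, 330.4, 421 and 385 CPM and 721, 701, 908 and 795 CPM (log2 fold change of 1.02, SE 0.127, adjusted p = 7.4e-05 by edgeR). Xaf1, Herc6 and Parp9 rose by 1.69, 1.54 and 1.15 on the log2 scale. Bst2, which encodes the tetherin that holds budding virions on the cell, rose too (log2 fold change of 1.42, SE 0.279, adjusted p = 0.00606 by edgeR).

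Targets of interferon gamma, though not of it alone, include the guanylate binding proteins (GBPs) and the immunity-related GTPases that attack vacuoles of intracellular microbes. Of 18 tested members 9 were higher and none lower (0 lower at an unadjusted p under 0.05 and by DESeq2 and limma voom), and all 18 had a log2 fold change above 0. Gbp9 stood at 132, 112, 136 and 115 CPM in tumor-free and 315, 288, 382 and 350 CPM in lymphatic libraries (log2 fold change of 1.43, SE 0.13, adjusted p = 3.75e-06 by edgeR). Gbp10 stood at 3.62, 2.96, 2.47 and 2.02 CPM and 25.3, 28, 39.6 and 27 CPM (log2 fold change of 3.44, SE 0.396, adjusted p = 3.93e-05 by edgeR), so that it was scarce in tumor-free nodes. Igtp, which encodes IRGM3, rose from 73.1, 46.5, 53.8 and 70.2 CPM to 119, 138, 152 and 126 CPM (log2 fold change of 1.14, SE 0.197, adjusted p = 0.002 by edgeR). Igtp and Irgm1 (log2 fold change of 1.09, SE 0.133, adjusted p = 6.45e-05 by edgeR) both belong to the GTPases that regulate the others.

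Antigen presentation by MHC class I, which NK cells carry as self ligand, had fewer called members. Of 20 tested genes 4 were higher and none lower (0 lower at an unadjusted p under 0.05 and by DESeq2 and limma voom). H2-T24 was the member that was called in every fit without 1 library, at 20.1, 37.3, 42.7 and 24.3 CPM in tumor-free and 83.8, 89.4, 134 and 92.7 CPM in lymphatic libraries (log2 fold change of 1.68, SE 0.234, adjusted p = 0.000244 by edgeR). Nlrc5, the activator of class I genes, rose from 360.1, 275, 353 and 347 CPM to 449, 469, 673 and 518 CPM (log2 fold change of 0.66, SE 0.147, adjusted p = 0.0155 by edgeR) and was not called without tumor-free 2, tumor-free 4, lymphatic 3 or lymphatic 4 (adjusted p up to 0.0885 by edgeR, without tumor-free 2). Without tumor-free 2 or lymphatic 3, 1 of the 20 genes was called. The number was 2 without tumor-free 1, tumor-free 4, lymphatic 1 or lymphatic 4. Of 8 immunoproteasome genes 1 was higher, Psme4 (log2 fold change of 0.45, SE 0.12, adjusted p = 0.0477 by edgeR), and the call was lost in 11 of the 12 fits without 1 library.

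**Figure D2:**
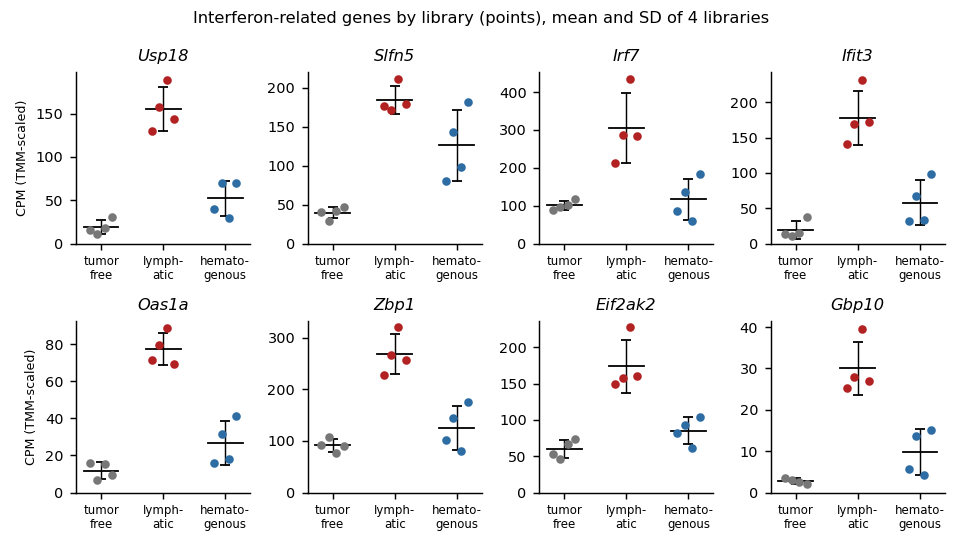
Levels of 8 interferon-related genes in each library (points, TMM-scaled CPM on a linear axis), with the mean and SD of the 4 libraries of a group as lines. The lymphatic libraries lie above all tumor-free libraries in each panel, as for Usp18 at 129.6 to 189 against 11.4 to 30.5 CPM, and the hematogenous libraries are shown beside them.

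The lymphatic and hematogenous libraries were compared directly for the same genes. Between these groups 1417 genes (8.85%) were called, 948 higher (5.92%) and 469 lower (2.93%) in the lymphatic libraries. This total fell to 620 without lymphatic 2, to 620 without hematogenous 3 and to 811 without hematogenous 1. Its split also depended on the scaling, with 66.9% higher as reported, 52.6% with median-of-ratios size factors, 47.7% with the upper quartile and 44.2% with library size alone. Of the 147 interferon genes 71 were higher in the lymphatic than in the hematogenous libraries and 3 lower, and 63 to 67 were higher under the other scalings. Without hematogenous 3 the number fell to 38. Usp18 stood at 39.8, 69.6, 30.1 and 69.7 CPM in the hematogenous libraries (log2 fold change of 1.57, SE 0.265, adjusted p = 0.00186 by edgeR), and Ifit2 at 61.1, 81.5, 72.9 and 98.3 CPM (log2 fold change of 1.00, SE 0.147, adjusted p = 0.000525 by edgeR). Both calls held in every fit without 1 library. Oas2, by contrast, stood at 11.3, 6.71, 2.92 and 15.4 CPM in the hematogenous libraries, overlapping the lymphatic range (log2 fold change of 0.36, SE 0.555, adjusted p = 0.788 by edgeR). Slfn5 at 80.1, 144, 98.5 and 182 CPM (log2 fold change of 0.55, SE 0.196, adjusted p = 0.0894 by edgeR) and Zc3hav1, the zinc finger antiviral protein, at 407, 479.8, 455 and 474 CPM (log2 fold change of 0.07, SE 0.109, adjusted p = 0.782 by edgeR) did not pass this test either.

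Promoters of the interferon genes were searched for the ISRE core, because these genes rose together. The core was 1 of 6 motifs searched, with the AP-1 site, the cyclic AMP response element, the CArG box, TTCNNNGAA (the STAT site) and GGGAA followed after 3 bases by CC (an NF-kB site). It was written as GAAA, 2 bases of any kind and GAAA again, and sought on both strands in the window from 250 bases before to 50 after each annotated start (RefSeq, GRCm38.p6). Of the windows of all tested genes 3.18% held it (411 of 12905 windows, for 10170 genes with an entry). Among windows of the higher genes the share was 13.9% (48 of 345), among those of the higher interferon genes 48.1% (37 of 77, for 62 of 78 genes) and among those of the lower genes 1.64% (1 of 61). Higher genes outside the interferon and early response lists held it in 4.15% of windows. With only the bases before the start the shares were 2.74%, 12.2%, 41.6%, 0% and 3.73% in the same order. The genes of the interferon lists are in part known for this element, so the share describes the lists and draws nothing about a factor. The 150 bases before the start are shown for Ifit3, Oas1a, Ifi206 and Igtp, 5′ to 3′ on the gene's strand, with the core or its reverse complement in capitals. These genes, from the OAS and IFIT, sensor and GTPase lists only, were chosen after their values and sequences were seen. Irf7, Cmpk2, Eif2ak2, Ifit2 and Oasl2 are among the genes described above that held no core in these bases.
Ifit3, chr19:34583379-34583528, plus strand: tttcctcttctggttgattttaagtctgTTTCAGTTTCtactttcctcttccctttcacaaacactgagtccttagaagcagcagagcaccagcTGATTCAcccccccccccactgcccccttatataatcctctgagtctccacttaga
Oas1a, chr5:120907526-120907675, minus strand: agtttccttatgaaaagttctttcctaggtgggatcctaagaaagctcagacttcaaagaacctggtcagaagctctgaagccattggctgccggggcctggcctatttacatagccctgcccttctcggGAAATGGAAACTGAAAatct
Ifi206, chr1:173491319-173491468, minus strand: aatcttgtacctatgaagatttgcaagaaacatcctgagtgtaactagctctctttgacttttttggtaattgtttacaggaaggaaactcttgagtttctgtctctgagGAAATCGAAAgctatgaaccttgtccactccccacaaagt
Igtp, chr11:58199406-58199555, plus strand: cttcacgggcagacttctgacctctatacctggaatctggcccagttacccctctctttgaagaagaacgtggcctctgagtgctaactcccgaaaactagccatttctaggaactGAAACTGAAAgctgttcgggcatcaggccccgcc
In Oas1a the core occurs in overlapping copies, 20 and 14 bases before the start, and in Igtp it begins 34 bases before it. In Ifi206 it begins 40 bases before the start, and in Ifit3 it lies on the other strand, 122 bases before. The second run of capitals in Ifit3 matches TGANTCA, the AP-1 site, which was found in 18.2% of the windows of higher interferon genes and 5.22% of all windows. The STAT site was found in 15.6% of the windows of higher interferon genes and 7.07% of all windows, and the NF-kB site in 10.4% and 6.95%.

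Early response genes were the other large group of called genes. What raised them, including any part of the handling of nodes and cells, was not tested. Over 5 lists with 78 tested members 26 were higher and 2 lower, with a median log2 fold change of 0.55. Without any 1 library 20 to 27 were higher, with tumor-free 3 alone 3, and 16 once the mean of the B cell genes entered as a covariate.

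AP-1 is a dimer of FOS and JUN proteins. Of 12 tested AP-1 genes 7 were higher and none lower (0 lower at an unadjusted p under 0.05 and by DESeq2 and limma voom), and without tumor-free 4 or lymphatic 2 the number was 4, as it was by limma voom. Fos stood at 4.33, 5.03, 9.37 and 10.2 CPM in the tumor-free and 361, 512, 271 and 418 CPM in the lymphatic libraries, so that the lowest lymphatic library was over 20 times the highest tumor-free one (log2 fold change of 5.72, SE 0.443, adjusted p = 1.8e-05 by edgeR). Fosb was read in only 2 of the tumor-free libraries, at 0, 2.52, 3.41 and 0 CPM, and stood at 643, 902, 445 and 470 CPM in the lymphatic libraries (log2 fold change of 8.37, SE 1.05, adjusted p = 0.00255 by edgeR), and was not called by limma voom (adjusted p = 0.322). Jun rose from 16.1, 45.9, 21 and 40 CPM to 246, 291, 240.2 and 311 CPM (log2 fold change of 3.17, SE 0.308, adjusted p = 3.21e-05 by edgeR). Jund, a member that is usually expressed at rest, rose from 69, 33.1, 43.3 and 48.2 CPM to 90, 121, 93.3 and 82.5 CPM (log2 fold change of 1.00, SE 0.196, adjusted p = 0.00606 by edgeR). Atf3, a stress-induced partner of JUN, had 0 counts in tumor-free 1, 2 and 4 and stood at 0.682 CPM in tumor-free 3, against 8.76, 34.5, 4.6 and 5.02 CPM in the lymphatic libraries (log2 fold change of 5.66, SE 1.19, adjusted p = 0.0112 by edgeR). It was not called without tumor-free 2, tumor-free 4 or lymphatic 2 (adjusted p up to 0.0818 by edgeR, without lymphatic 2), and its log2 fold change was 10.93 without tumor-free 3.

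Orphan receptors and zinc finger factors of the early response followed. Of 21 tested members of this list 8 were higher and none lower (0 lower at an unadjusted p under 0.05 and by DESeq2 and limma voom). The NR4A receptors are induced by antigen receptor and activating receptor signals, among others. Nr4a1 stood at 15.8, 16, 15.3 and 16.8 CPM in the tumor-free libraries, a range of under 2 CPM, and at 178, 378, 187 and 169.6 CPM in the lymphatic ones (log2 fold change of 3.84, SE 0.435, adjusted p = 0.000284 by edgeR). Nr4a2 rose from 3.98, 12.4, 8.39 and 10.1 CPM to 132, 228, 105 and 110.1 CPM (log2 fold change of 4.06, SE 0.354, adjusted p = 3.87e-06 by edgeR). For both genes lymphatic 2 was the highest library, and the other 3 lymphatic libraries lay far above all tumor-free ones. Egr1, which follows MAP kinase signals, stood at 15.1, 22.9, 20.8 and 10.8 CPM and 57.2, 85.2, 65.5 and 55.3 CPM (log2 fold change of 1.91, SE 0.278, adjusted p = 0.000341 by edgeR). Klf4 and Klf6 rose by 3.32 and 0.93 and Ier5 by 0.79 on the log2 scale, each without overlap between the groups. By limma voom 5 genes of the list were called, and Klf4 was not (adjusted p = 0.0643).

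Inhibitors that limit MAP kinase and NF-kB signals were among the higher genes too. Dusp1, a phosphatase of MAP kinases, stood at 3.74, 10.4, 11.4 and 9.93 CPM in the tumor-free and 255, 367, 170.3 and 254 CPM in the lymphatic libraries (log2 fold change of 4.87, SE 0.43, adjusted p = 5.08e-05 by edgeR). Of 14 tested MAP kinase inhibitors and growth arrest genes 3 were higher, Dusp1, Gadd45b and Spry2, and all held in each fit without 1 library. Gadd45b was not called by limma voom (adjusted p = 0.0696). Dusp7 and Spred2 were lower, at -0.72 and -0.80. Dusp7 was not called without tumor-free 1, tumor-free 2, tumor-free 3, lymphatic 1, lymphatic 2, lymphatic 3 or lymphatic 4 (adjusted p up to 0.109 by edgeR, without lymphatic 1), and Spred2 was not called without tumor-free 1, tumor-free 4, lymphatic 1, lymphatic 3 or lymphatic 4 (adjusted p up to 0.108 by edgeR, without lymphatic 1). Tnfaip3, which encodes the ubiquitin-editing inhibitor A20, rose from 119.6, 104, 101 and 103 CPM to 785, 1279, 458 and 824 CPM (log2 fold change of 2.97, SE 0.482, adjusted p = 0.00632 by edgeR). Of 17 genes of NF-kB and its inhibitors 3 were higher, Tnfaip3, Nfkbia (IkB alpha, log2 fold change of 1.12, SE 0.179, adjusted p = 0.000925 by edgeR) and Nfkbiz (log2 fold change of 1.43, SE 0.25, adjusted p = 0.00261 by edgeR). Nfkbiz was not called by limma voom (adjusted p = 0.128). None was lower (0 lower at an unadjusted p under 0.05 and by DESeq2 and limma voom).

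Proteins that shorten the life of mRNA formed the last of these lists, with 5 of 14 tested members higher and none lower (0 lower at an unadjusted p under 0.05 and by DESeq2 and limma voom). Zfp36 encodes tristetraprolin, which binds AU-rich elements of cytokine mRNAs and marks them for decay. It stood at 115, 110.1, 120.1 and 109 CPM in the tumor-free libraries and at 315, 432, 309 and 333 CPM in the lymphatic ones, with a narrow spread in the first (log2 fold change of 1.61, SE 0.139, adjusted p = 2.22e-06 by edgeR). Its relatives Zfp36l1 and Zfp36l2 rose by 0.64 and 0.71, and the antiproliferative genes Btg2 and Tob1 by 0.66 and 0.93. Zfp36l2 and Tob1 were lost in 4 and 5 of the 12 fits without 1 library, and 3 of the 14 genes were called without tumor-free 1, tumor-free 2, lymphatic 2 or lymphatic 4.

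**Figure D3:**
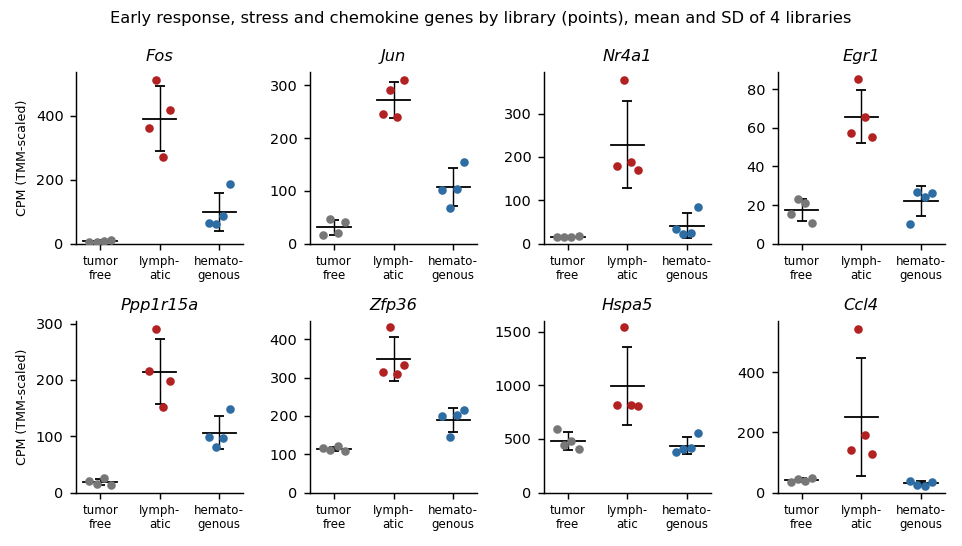
Levels of 8 early response, stress and chemokine genes in each library (points, TMM-scaled CPM on a linear axis), with the mean and SD of the 4 libraries of a group as lines. Each lymphatic library exceeds every tumor-free library in all panels, as for Fos at 271 to 512 against 4.33 to 10.2 CPM, and lymphatic 2 is the highest point for Fos, Nr4a1, Egr1, Ppp1r15a, Zfp36, Hspa5 and Ccl4.

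Of the 78 early response genes 24 were higher in the lymphatic than in the hematogenous libraries and 5 lower, beside 5.92% and 2.93% of all genes. The numbers were 19 and 6 under each other scaling, and 14 were higher without lymphatic 2. Nr4a1 stood at 34.7, 23.1, 23.3 and 84.2 CPM in the hematogenous libraries (log2 fold change of 2.47, SE 0.401, adjusted p = 0.00318 by edgeR) and Nr4a2 at 15.5, 20.4, 22 and 39.7 CPM (log2 fold change of 2.56, SE 0.321, adjusted p = 0.000232 by edgeR). Fos stood at 65.1, 60.3, 84.8 and 187 CPM (log2 fold change of 1.98, SE 0.36, adjusted p = 0.00597 by edgeR), between the tumor-free and the lymphatic range. Dusp1, at 95.3, 85.8, 128 and 247 CPM, did not pass the direct test (log2 fold change of 0.91, SE 0.354, adjusted p = 0.145 by edgeR), and neither did Tnfaip3, at 209, 427, 395 and 1171 CPM (log2 fold change of 0.60, SE 0.446, adjusted p = 0.511 by edgeR). Hematogenous 4 was the highest library of its group for each of these 5 genes. Zfp36l2 was lower in the lymphatic than in the hematogenous libraries (log2 fold change of -0.84, SE 0.159, adjusted p = 0.00304 by edgeR), while it was higher than in the tumor-free ones.

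Chaperones and genes of the stress response to unfolded protein were higher in part. Of 45 tested members 9 were higher and none lower (0 lower at an unadjusted p under 0.05 and by DESeq2 and limma voom), with a median log2 fold change of 0.31, and 6 to 10 were higher without any 1 library. Ppp1r15a encodes GADD34, the phosphatase subunit that restores translation after stress, and had the smallest adjusted p of all genes tested. It stood at 20.4, 15.5, 26.2 and 13.5 CPM in the tumor-free and 216, 291, 153 and 198 CPM in the lymphatic libraries, more than 5-fold apart at the closest (log2 fold change of 3.48, SE 0.236, adjusted p = 6.04e-08 by edgeR). Atf4, the transcription factor of the integrated stress response, rose from 213, 211, 159.5 and 173 CPM to 322, 409.8, 273 and 335 CPM (log2 fold change of 0.83, SE 0.138, adjusted p = 0.00149 by edgeR). Hspa5, the chaperone BiP of the endoplasmic reticulum, stood at 591, 445, 479 and 405 CPM and 816, 1540, 816 and 806 CPM (log2 fold change of 1.05, SE 0.192, adjusted p = 0.00308 by edgeR), with lymphatic 2 almost 2 times as high as the other lymphatic libraries. Dnajb9, a cochaperone of BiP, rose too (log2 fold change of 1.67, SE 0.228, adjusted p = 0.000195 by edgeR). In the cytosol, Hspa8, the constitutive HSP70, rose from 903, 848, 788 and 928 CPM to 1423, 2568, 1434 and 1331 CPM (log2 fold change of 0.96, SE 0.172, adjusted p = 0.00262 by edgeR). Hsp90aa1, Hsph1, Stip1 and Dnajb4 rose by 1.10, 1.26, 0.89 and 0.68, but were lost in 1, 1, 2 and 11 of the 12 fits without 1 library. For Dnajb4 the adjusted p reached 0.271 by edgeR, without lymphatic 2. Without lymphatic 2 the log2 fold changes of Hsph1, Stip1 and Dnajb4 were 0.82, 0.55 and 0.45, and the number of heat shock genes called was 3 of 18, as it was without tumor-free 2. It was 2 without tumor-free 4.

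Promoters of the early response and stress genes are shown for Dusp1 and Ppp1r15a, which hold the cyclic AMP response element TGACGTCA, and for Zfp36, which holds a CArG box, the element of serum response factor. Capitals mark the element, and the sequences are again the 150 bases before the start on the gene's strand (RefSeq, GRCm38.p6), chosen after values and sequences were seen.
Dusp1, chr17:26508473-26508622, minus strand: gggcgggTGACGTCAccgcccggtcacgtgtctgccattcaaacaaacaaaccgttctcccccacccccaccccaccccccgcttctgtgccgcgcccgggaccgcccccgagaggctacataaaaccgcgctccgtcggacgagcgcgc
Ppp1r15a, chr7:45526269-45526418, minus strand: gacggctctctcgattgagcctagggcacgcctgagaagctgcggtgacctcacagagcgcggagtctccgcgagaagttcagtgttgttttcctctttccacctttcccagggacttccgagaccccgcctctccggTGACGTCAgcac
Zfp36, chr7:28379229-28379378, minus strand: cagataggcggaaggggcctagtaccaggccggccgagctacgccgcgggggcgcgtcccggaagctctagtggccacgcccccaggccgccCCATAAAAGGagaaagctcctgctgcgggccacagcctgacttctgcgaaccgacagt
The cyclic AMP response element was present in 2 of 27 windows (7.41%) of the higher early response genes and in 2.97% of all windows. Ppp1r15a is not in the early response lists. The CArG box was present in 3.7% and 1.31%, and the AP-1 site TGANTCA in 11.1% and 5.22%. The shares of the early response genes rest on 1 to 3 windows each. Among the 345 windows of all higher genes these elements were present in 2.32%, 1.16% and 8.99%, in the same order. The NF-kB site was present in 5 of the 27 windows (18.5%, against 6.95% of all windows), and in 7.41% with only the bases before the start (5.94% of all). The ISRE core was present in 1 of the 27 windows.

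Genes of secreted cytokines and chemokines were higher in 3 of 19 tested members, and 1 was lower, Tgfb3. Ifng, which encodes interferon gamma, stood at 56.6, 91.3, 58.4 and 52.8 CPM in the tumor-free and 141, 298, 152 and 172 CPM in the lymphatic libraries (log2 fold change of 1.56, SE 0.231, adjusted p = 0.000417 by edgeR). Ccl3 and Ccl4, chemokines that draw other leukocytes, stood at 50, 68.4, 45.4 and 62.6 and 33.6, 44.5, 36.8 and 48.9 CPM in the tumor-free libraries. In the lymphatic libraries they stood at 160.2, 355, 206 and 154 and 141, 544, 192 and 129 CPM, and both rose (log2 fold change of 1.96, SE 0.28, adjusted p = 0.000641 by edgeR for Ccl3, and log2 fold change of 2.62, SE 0.422, adjusted p = 0.00441 by edgeR for Ccl4). The groups did not overlap for these 3 genes, and lymphatic 2 was the highest library for each. Against the hematogenous libraries, at 63.3, 49.1, 46.9 and 80 CPM for Ifng, 72.7, 31.6, 38 and 38.5 CPM for Ccl3 and 37.2, 26.6, 20.9 and 35.4 CPM for Ccl4, the lymphatic libraries were higher by 1.67, 2.28 and 3.07 on the log2 scale (SE 0.231, 0.282 and 0.428, edgeR adjusted p = 0.000321, 0.000257 and 0.0018). These calls held in every fit without 1 library. Against tumor-free nodes Ccl4 did not pass by limma voom (adjusted p = 0.0933).

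Of 23 tested genes of the killing machinery, granule contents and exocytosis, 1 was higher and none lower by edgeR (2 lower at an unadjusted p under 0.05, 1 by DESeq2 and 1 by limma voom), beside 2.32% and 0.418% of all genes. The higher gene was the granzyme inhibitor Serpinb6b (log2 fold change of 0.88, SE 0.217, adjusted p = 0.0338 by edgeR), and it was lost in 9 of the 12 fits without 1 library and under each other scaling. Prf1, which encodes perforin, stood at 992, 984, 1014 and 963 CPM and 718, 1270, 971 and 711 CPM, with overlap (log2 fold change of -0.11, SE 0.168, adjusted p = 0.863 by edgeR). Gzmb, which encodes granzyme B, stood at 678, 394, 392 and 406 CPM and 599, 1846, 961 and 622 CPM (log2 fold change of 1.11, SE 0.444, adjusted p = 0.285 by edgeR). Lymphatic 2 was highest and tumor-free 1 stood above the other tumor-free libraries, so that the groups overlapped. Both genes were at lower CPM in the hematogenous libraries, 358, 593, 469.7 and 478 for Prf1 and 133, 502, 274 and 441 for Gzmb, and the direct test passed for Prf1 (log2 fold change of 0.95, SE 0.17, adjusted p = 0.00227 by edgeR) and not for Gzmb (log2 fold change of 1.58, SE 0.449, adjusted p = 0.0515 by edgeR).

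Genes of mitosis and chromosome segregation lay above 0 throughout. All 40 tested members had a log2 fold change above 0 (58.3% of all genes did), the median was 1.08, 11 were called higher and none lower (0 lower at an unadjusted p under 0.05 and by DESeq2 and limma voom). The count depended on single libraries: 3 were called without lymphatic 4, 6 without lymphatic 2, 6 without tumor-free 2 and 7 without tumor-free 4. With the B cell covariate 4 were called. Mki67, the proliferation antigen Ki-67, stood at 83, 43.5, 52.8 and 61.6 CPM in the tumor-free and 137, 128, 145 and 229.7 CPM in the lymphatic libraries (log2 fold change of 1.41, SE 0.236, adjusted p = 0.00153 by edgeR). Cenpa, the histone of centromeres, stood at 33.3, 16.7, 22.7 and 18 CPM and 60.6, 56.4, 52.9 and 61.1 CPM (log2 fold change of 1.34, SE 0.208, adjusted p = 0.000687 by edgeR). Kif11, a motor of the mitotic spindle, stood at 9.35, 4.29, 7.29 and 4.17 CPM and 26.5, 25.5, 25.1 and 38.5 CPM (log2 fold change of 2.19, SE 0.411, adjusted p = 0.00396 by edgeR). These 3 were the members called in all fits without 1 library, and lymphatic 4 was the highest library for each of them. Of 38 genes of DNA replication 2 were higher, Mcm6 and Pole at 0.61 and 0.72, and 0 were called without tumor-free 2, tumor-free 4, lymphatic 2 or lymphatic 4 and with the B cell covariate. The direct test with the hematogenous libraries found 37 of these 78 genes higher (26 with library size alone, 17 without hematogenous 3), beside 5.92% of all genes. Mki67 was among them, at 47.3, 62.1, 32 and 70.5 CPM in the hematogenous libraries (log2 fold change of 1.59, SE 0.236, adjusted p = 0.000601 by edgeR).

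Metabolic genes were measured as well, beside 2.32% of all genes called higher and 0.418% lower. Of 78 nuclear-encoded subunits of the respiratory chain none was called by edgeR (1 higher and 7 lower at an unadjusted p under 0.05, 3 lower by DESeq2, 0 by limma voom), with a median of -0.05. The 15 transcripts of the mitochondrial genome had a median of -0.46 and no call (6 lower at an unadjusted p under 0.05, 2 lower by DESeq2, 0 by limma voom). Of 26 glycolysis genes 1 was higher, a share near that of all genes. It was Gapdh, at 27.6, 32, 36.3 and 27.3 CPM and 58.3, 77.5, 54 and 72 CPM (log2 fold change of 1.08, SE 0.189, adjusted p = 0.00224 by edgeR). Gapdh has many near-identical pseudogenes and its level here was low for this gene, so its value is uncertain. Slc3a2, the shared heavy chain of amino acid transporters, rose from 67.8, 69.5, 83.3 and 80.6 CPM to 125, 162, 122 and 119 CPM (log2 fold change of 0.81, SE 0.154, adjusted p = 0.00461 by edgeR). The transferrin receptor gene Tfrc rose by 1.06 but was not called without tumor-free 1, tumor-free 2 or lymphatic 2 (adjusted p up to 0.107 by edgeR, without lymphatic 2).

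Surface receptors were called in single members, beside 2.32% of all genes called higher and 0.418% called lower. Of 28 activating receptors and adaptors 1 was higher and 2 lower, with 4 lower by library size alone or limma voom, 6 by DESeq2 and none with the B cell covariate. Lat, the adaptor that links receptor kinases to calcium and MAP kinase signals, stood at 90.4, 120.1, 113 and 106 CPM in the tumor-free and 72.6, 66, 65.4 and 62.6 CPM in the lymphatic libraries and was lower in each fit without 1 library (log2 fold change of -0.69, SE 0.137, adjusted p = 0.00673 by edgeR). Slamf6 was higher at 0.71 and was not called without tumor-free 1, tumor-free 4, lymphatic 1, lymphatic 4, hematogenous 2, hematogenous 3 or hematogenous 4 (adjusted p up to 0.148 by edgeR, without lymphatic 4). Of 18 inhibitory lectin-like receptors none was called by edgeR (2 higher and 0 lower at an unadjusted p under 0.05, 1 higher by DESeq2 and 1 by limma voom). Checkpoint receptors and signalling brakes were higher in 3 of 21, and in 1 without tumor-free 1, tumor-free 4, lymphatic 3 or lymphatic 4. Cblb, a ubiquitin ligase that restrains NK cell activation, rose from 181, 191, 244 and 166 CPM to 318, 293, 296 and 345 CPM (log2 fold change of 0.68, SE 0.129, adjusted p = 0.00449 by edgeR). Tigit, an inhibitory receptor for nectins, stood at 31.7, 36.1, 23.1 and 30.2 CPM and 75.2, 101, 83.7 and 82.9 CPM, without overlap (log2 fold change of 1.51, SE 0.33, adjusted p = 0.0192 by edgeR), and was not called without tumor-free 1, tumor-free 2, tumor-free 4, lymphatic 2, lymphatic 3 or lymphatic 4 (adjusted p up to 0.0997 by edgeR, without lymphatic 2). Lag3 stood at 8.19, 16.3, 5.75 and 8.35 CPM and 15.5, 25.5, 27.9 and 24.3 CPM, with overlap (log2 fold change of 1.29, SE 0.329, adjusted p = 0.0376 by edgeR), and was not called without tumor-free 1, tumor-free 3, tumor-free 4, lymphatic 2, lymphatic 3, lymphatic 4, hematogenous 2, hematogenous 3 or hematogenous 4 (adjusted p up to 0.133 by edgeR, without lymphatic 4). Of 29 cytokine receptors and repressors of their signals 2 were higher and 1 lower. The higher genes were Csf2rb and Il10ra, the receptor chain for interleukin 10, at 328, 324, 357 and 353 CPM in tumor-free and 609, 616, 765 and 718 CPM in lymphatic libraries (log2 fold change of 0.99, SE 0.129, adjusted p = 0.000116 by edgeR). Csf2rb was lost in 8 of the 12 fits without 1 library, with the compared groups alone (edgeR adjusted p = 0.23), with a replicate block (0.0649), with the B cell covariate (0.171) and by limma voom (0.0676). The list held 1 higher gene without tumor-free 1, tumor-free 2, lymphatic 2, lymphatic 4, hematogenous 2, hematogenous 3 or hematogenous 4.

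Genes of tissue residency and of type 1 innate lymphoid cells (ILC1) went in both directions. Residency marks NK-like cells that stay in a tissue, and Cd69, Rgs1 and Rgs2 belong to it but also rise on activation. Of 23 tested members 5 were higher and 3 lower (2 higher without tumor-free 4, and 3 without tumor-free 1, tumor-free 2, lymphatic 3, hematogenous 2 or hematogenous 3), with a median log2 fold change of -0.28. With median-of-ratios factors, library size alone, the B cell covariate or limma voom 3 were higher. The integrin gene Itga1 (CD49a), which binds collagen, stood at 55.4, 77.7, 65.6 and 58.3 CPM in the tumor-free and 27.6, 16, 27.9 and 24.9 CPM in the lymphatic libraries, without overlap (log2 fold change of -1.42, SE 0.199, adjusted p = 0.000263 by edgeR). Zfp683, which encodes the residency factor HOBIT, stood at 6.67, 28.4, 16.3 and 19 CPM and 2.38, 1.48, 3.89 and 2.19 CPM (log2 fold change of -2.83, SE 0.46, adjusted p = 0.00116 by edgeR). Tumor-free 1 was the lowest library of its group for Zfp683 and still above the lymphatic range. Tnfsf10 was the other lower gene (log2 fold change of -0.53, adjusted p = 0.045 by edgeR), and it was lost in 6 of the 12 fits without 1 library. The share of ILC1 among the sorted cells was not tested. Cd69, which retains lymphocytes by removing the receptor for exit, rose from 49.2, 40.2, 47.4 and 53.5 CPM to 129.8, 176, 85.7 and 114 CPM (log2 fold change of 1.41, SE 0.228, adjusted p = 0.00109 by edgeR). Rgs2, a brake of chemokine receptor signals, rose from 65.1, 65.7, 65.2 and 62.8 CPM to 233, 275, 131 and 204 CPM (log2 fold change of 1.70, SE 0.236, adjusted p = 0.00026 by edgeR). Rgs1 rose by 2.07 but was not called without tumor-free 4 (edgeR adjusted p = 0.051). Against the hematogenous libraries, at 13.5, 5.8, 6.15 and 6.06 CPM, Zfp683 was lower (log2 fold change of -1.67, SE 0.445, adjusted p = 0.0233 by edgeR), and was not called without lymphatic 1, lymphatic 2, lymphatic 4 or hematogenous 1 (adjusted p up to 0.0985 by edgeR, without lymphatic 2). Itga1, at 30.6, 35, 45.7 and 34.3 CPM, did not pass that test (log2 fold change of -0.60, SE 0.197, adjusted p = 0.0646 by edgeR).

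Transcription factors of NK and stem-like lymphocytes were higher for 5 of 32 and lower for 2. Id2, which holds E proteins in check and is needed for NK cells, was abundant and fell from 861, 1076, 739.7 and 711 CPM to 404, 541, 443 and 504 CPM (log2 fold change of -0.84, SE 0.175, adjusted p = 0.00948 by edgeR). Myb and Bach2, factors of immature and stem-like lymphocytes, stood at 74.5, 45.1, 49.4 and 57.6 and 68.2, 42, 65.9 and 58.6 CPM in tumor-free and at 174, 118, 142 and 171 and 104, 84.2, 97.2 and 102 CPM in lymphatic libraries, without overlap. Both rose (log2 fold change of 1.42, SE 0.169, adjusted p = 5.08e-05 by edgeR for Myb, and log2 fold change of 0.72, SE 0.15, adjusted p = 0.00948 by edgeR for Bach2). Nrarp, a target and inhibitor of Notch, fell from 18.7, 18.1, 15 and 26.8 CPM to 2.6, 2.08, 11.8 and 5.02 CPM (log2 fold change of -1.88, SE 0.452, adjusted p = 0.0266 by edgeR) and was not called without tumor-free 4, lymphatic 1, lymphatic 2 or lymphatic 4 (adjusted p up to 0.0998 by edgeR, without lymphatic 1). Bcl6, Ikzf2 and Irf4 were higher and were lost in 9, 9 and 8 of the 12 fits without 1 library. The list held 2 or 3 higher genes without tumor-free 1, 2 or 4, without lymphatic 1, 3 or 4 and without hematogenous 2, 3 or 4, and 3 under each other scaling. With the B cell covariate 1 gene of the list was higher and none lower. Id2 and Bach2 were then not called (log2 fold changes of -0.54 and 0.48, edgeR adjusted p = 0.254 and 0.213). The summed level of the B cell genes was 516 to 811 CPM in tumor-free and 728 to 1669 CPM in lymphatic libraries, and their part in this list was not tested beyond that fit.

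The lower genes of the cytokine and the cytokine receptor lists, Tgfb3 and Ski, both act in signalling by transforming growth factor beta. They were put together after their values were seen. No list of this pathway was counted, so they do not describe it as a whole. Tgfb3, a ligand, stood at 17.8, 34.2, 33.2 and 32.4 CPM in the tumor-free and 10.1, 12.9, 11.1 and 8.73 CPM in the lymphatic libraries, with tumor-free 1 below the other tumor-free libraries (log2 fold change of -1.46, SE 0.312, adjusted p = 0.0116 by edgeR). Ski, which represses the SMAD factors of this pathway, fell from 139, 146, 178 and 164 CPM to 72.7, 99, 103 and 92.5 CPM (log2 fold change of -0.77, SE 0.141, adjusted p = 0.0031 by edgeR). Neither gene passed the direct test with the hematogenous libraries, which stood at 15.4, 7.52, 5.33 and 7.16 CPM for Tgfb3 (log2 fold change of 0.28, SE 0.31, adjusted p = 0.678 by edgeR) and 79.9, 112, 89.5 and 86.7 CPM for Ski (log2 fold change of -0.00, SE 0.141, adjusted p = 0.997 by edgeR). Bcl2, the survival factor, was lower (log2 fold change of -0.52, SE 0.121, adjusted p = 0.022 by edgeR) and was not called without tumor-free 3, tumor-free 4, lymphatic 1 or lymphatic 3 (adjusted p up to 0.0853 by edgeR, without lymphatic 1).

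**Figure D4:**
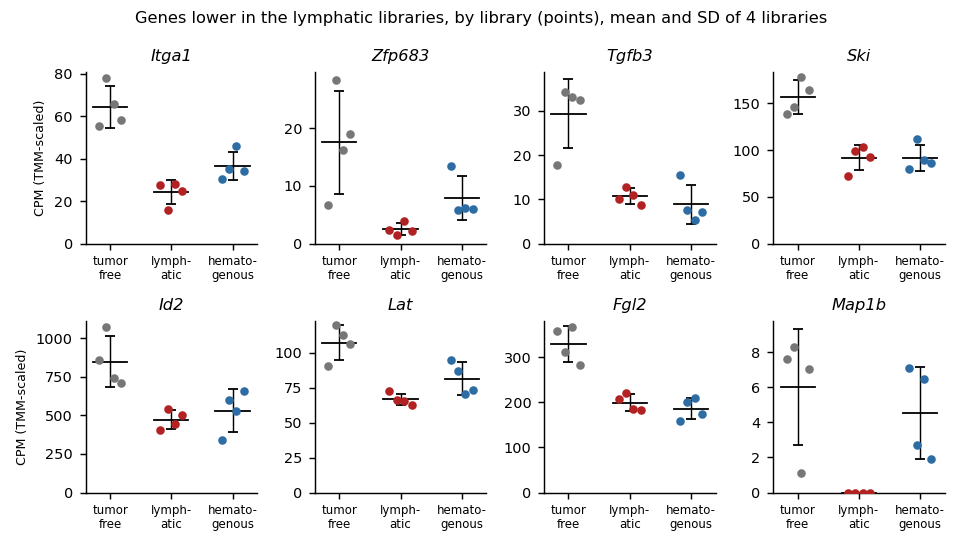
Levels of 8 genes that were lower in the lymphatic libraries, in each library (points, TMM-scaled CPM on a linear axis), with the mean and SD of the 4 libraries of a group as lines. In each panel all lymphatic libraries lie below all tumor-free libraries, as for Itga1 at 16 to 27.9 against 55.4 to 77.7 CPM, and Map1b had no count in any lymphatic library.

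Genes of S100 proteins, annexins, galectins and the actin cytoskeleton were lower for 5 of 32 tested members and higher for none by edgeR (0 higher at an unadjusted p under 0.05 and by DESeq2 and limma voom), with a median of -0.22. Actb stood at 5401, 5837, 5520 and 6635 CPM in the tumor-free and 2997, 4611, 4470 and 3107 CPM in the lymphatic libraries (log2 fold change of -0.62, SE 0.154, adjusted p = 0.0321 by edgeR). S100a4 stood at 44.8, 75.5, 25.3 and 37.1 CPM and 18.8, 16.4, 12.6 and 22.3 CPM (log2 fold change of -1.37, SE 0.301, adjusted p = 0.0138 by edgeR). Emp3, S100a6 and Cotl1 were the others. None of the 5 held in every fit without 1 library, and 1 of them was called without tumor-free 2, lymphatic 1 or lymphatic 3, and 2 without tumor-free 4 or lymphatic 4. With the B cell covariate none was called, and by DESeq2 9 were lower. In the direct test with the hematogenous libraries 20 of the 32 were higher in the lymphatic libraries and 2 lower (17 higher with library size alone), beside 5.92% and 2.93% of all genes. Actb was among the higher ones, at 1909, 2387, 1610 and 1913 CPM in the hematogenous libraries (log2 fold change of 0.96, SE 0.155, adjusted p = 0.00118 by edgeR). For Actb the lymphatic libraries thus lay between the other groups.

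RNA binding and regulatory RNA genes gave smaller changes. Ddx5, a helicase of splicing, rose from 1790, 1767, 1972 and 1784 CPM to 2917, 3042, 2667 and 2652 CPM (log2 fold change of 0.62, SE 0.11, adjusted p = 0.00234 by edgeR). The other 4 called splicing genes (Srsf5, Tra2b, Srsf7 and Hnrnpa1) rose by 0.53, 0.58, 0.48 and 0.48 but were each lost in some fit without 1 library. Without tumor-free 4 or lymphatic 2, or with the B cell covariate, 1 of these 5 genes was called, and under each other scaling 3. Cirbp, a protein induced by cold, fell from 132, 156, 175 and 134 CPM to 104, 75.7, 112 and 97.6 CPM (log2 fold change of -0.62, SE 0.142, adjusted p = 0.0192 by edgeR) and was not called without tumor-free 3 (edgeR adjusted p = 0.0595). It was also lower than in the hematogenous libraries, at 216, 176, 243 and 214 CPM (log2 fold change of -1.12, SE 0.143, adjusted p = 0.000168 by edgeR). Snhg1, a host gene of small nucleolar RNAs, rose from 61.6, 57.1, 64.6 and 72.5 CPM to 132, 174, 93.8 and 116 CPM (log2 fold change of 1.01, SE 0.188, adjusted p = 0.00361 by edgeR). Bhlhe40, a repressor that is listed with the circadian clock and also rises on activation, stood at 168, 156, 167 and 148 CPM and 397, 679.7, 382 and 378 CPM (log2 fold change of 1.52, SE 0.194, adjusted p = 9.26e-05 by edgeR).

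Outside the lists, the higher genes with the smallest adjusted p among those that met the naming rule were Ms4a6b, Ifi214, Phf11c, Frat2, Plek, Pnrc1, Hsh2d, Plac8, Zc3hav1 and Hrh2. Ms4a6b, a membrane protein, stood at 215, 171, 216 and 208 CPM in the tumor-free and 412, 343, 394 and 441 CPM in the lymphatic libraries (log2 fold change of 0.97, SE 0.115, adjusted p = 5.08e-05 by edgeR). Plek, which encodes pleckstrin, a substrate of protein kinase C, rose from 807, 715, 779 and 758 CPM to 1323, 1326, 1171 and 1372 CPM (log2 fold change of 0.76, SE 0.114, adjusted p = 0.000461 by edgeR) and stood at 648, 729, 815 and 616 CPM in the hematogenous libraries (log2 fold change of 0.89, SE 0.114, adjusted p = 0.000188 by edgeR). Hrh2, a histamine receptor, rose from 72.5, 77.8, 76.7 and 63.2 CPM to 125, 115, 129 and 130 CPM (log2 fold change of 0.78, SE 0.124, adjusted p = 0.000858 by edgeR). Plac8 rose from 6.78, 9.32, 5.88 and 7.63 CPM to 42.5, 41, 31.1 and 51 CPM (log2 fold change of 2.50, SE 0.388, adjusted p = 0.000704 by edgeR). In the other direction the rule named Fgl2, at 358, 312, 368 and 283 CPM and 207, 222, 186 and 182 CPM (log2 fold change of -0.73, SE 0.125, adjusted p = 0.00185 by edgeR). It also named Sulf2, an enzyme that trims sulfate from heparan chains, at 285, 370.5, 319.6 and 328 CPM and 171, 231, 232 and 194 CPM (log2 fold change of -0.65, SE 0.121, adjusted p = 0.00361 by edgeR). Rnaseh2c, a subunit of ribonuclease H2, fell from 31.4, 41.4, 24.9 and 30.5 CPM to 11.3, 11.4, 13.5 and 14.2 CPM (log2 fold change of -1.34, SE 0.254, adjusted p = 0.00411 by edgeR). Irf2bpl, St5, Gpc1, Mvb12b and Ifitm10 fell by 0.76, 1.20, 0.89, 0.72 and 0.68 on the log2 scale, each called in every fit without 1 library and each without overlap between the groups. With the B cell covariate Gpc1, Irf2bpl, Mvb12b, Ifitm10, Rnaseh2c and Sulf2 were not called (edgeR adjusted p = 0.17, 0.0648, 0.0523, 0.15, 0.11 and 0.0886), and Plac8 was not called by limma voom (adjusted p = 0.0902).

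Of the called genes 45 higher ones had 0 counts in all tumor-free libraries and 4 lower ones 0 counts in all lymphatic libraries. Map1b, which binds microtubules and is best known from neurons, had 196 counts over the tumor-free libraries, at 7.6, 8.29, 1.11 and 7.05 CPM, and 0 counts in all lymphatic libraries. With a floor of 3 counts over the group, its mean level was at least 240-fold lower in the lymphatic libraries (edgeR adjusted p = 0.000151). The hematogenous libraries stood at 7.09, 2.73, 6.47 and 1.9 CPM, and the direct test passed (edgeR adjusted p = 0.000304). Reln, which encodes the secreted protein reelin, had 0 counts in the tumor-free libraries and stood at 25.7, 1.12, 2.3 and 6.66 CPM in the lymphatic ones, at least 136-fold higher in the mean (edgeR adjusted p = 0.00245), and lymphatic 1 was the highest library. By limma voom Reln was not called (adjusted p = 0.406). Bend4 was read in tumor-free 3 alone of its group, at 1.53 CPM, and stood at 8.64, 5.58, 4.36 and 7.46 CPM in the lymphatic libraries. It rose (log2 fold change of 3.62, SE 0.769, adjusted p = 0.011 by edgeR), and its log2 fold change was 9.91 without tumor-free 3. It was not called with the compared groups alone (edgeR adjusted p = 0.0857) or the B cell covariate (0.0545). Such genes stand beside the lower number of genes read in tumor-free 1, 2 and 4, whose part in them was not tested.

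Markers of other cell types were measured in the same libraries. In sorted bulk cells, fewer cells of a type and less RNA per cell cannot be told apart. Of 23 genes of B cells and MHC class II 1 was higher, Pax5 (log2 fold change of 1.44, SE 0.361, adjusted p = 0.0349 by edgeR), the median of the list was 0.90, and 21 of the 23 lay above 0. Summed over the list, tumor-free libraries held 516 to 811 CPM and lymphatic ones 728 to 1669 CPM. Pax5 was not called without tumor-free 1, tumor-free 2, tumor-free 4, lymphatic 1, hematogenous 2, hematogenous 3 or hematogenous 4 (adjusted p up to 0.203 by edgeR, without lymphatic 1), and was 0.94 without lymphatic 1. Cd79a, a chain of the B cell receptor, stood at 10.3, 6.95, 18.2 and 5.04 CPM and 38.1, 10.7, 16.5 and 19.9 CPM, with overlap (log2 fold change of 1.05, SE 0.405, adjusted p = 0.217 by edgeR). With the mean of this list as a covariate 190 genes were called, 175 of them higher, and 60 of the 147 interferon genes. Of other lists it left 2 of 4 higher MHC class I genes, 1 of 5 higher genes of mRNA decay, 1 of 3 higher genes of NF-kB and its inhibitors and 3 of 5 higher heat shock genes. Genes called in every fit without 1 library that it did not call, beside those given above, were Btg2, Zfp36l1, Nfkbiz, Tnfaip3, Cblb, Ddx5, Snhg1, Lat and Tgfb3 (edgeR adjusted p of 0.0523 to 0.0884). Their log2 fold changes then kept their sign. Among tumor-free libraries the covariate took values of -2.07 to 0.351, and among lymphatic ones -0.0842 to 1.59, so that it moved with the group. Beyond these numbers the part of B cell RNA in the results was not tested.

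T cell genes were not called by edgeR in either direction among 16 tested (1 higher and 0 lower at an unadjusted p under 0.05, 0 by DESeq2 and limma voom), and their sum was 879 to 1080 CPM in tumor-free and 944 to 1251 CPM in lymphatic libraries. Cd3e, a chain of the T cell receptor complex, stood at 13, 29.7, 70 and 49.6 CPM and 69.4, 39.9, 48.6 and 53.4 CPM (log2 fold change of 0.37, SE 0.353, adjusted p = 0.742 by edgeR). Macrophage and monocyte genes summed to 282 to 400 CPM against 275 to 440 CPM, with 2 of 16 higher, Cd68 and Clec4a3 (0 with the compared groups alone and 1 with the B cell covariate or by limma voom). Lyz2, the lysozyme of myeloid cells, stood at 122, 102, 62.4 and 95.1 CPM and 44.8, 112, 44.7 and 75 CPM (log2 fold change of -0.46, SE 0.393, adjusted p = 0.699 by edgeR). Neutrophil genes summed to at most 2.94 CPM in tumor-free and 3.39 CPM in lymphatic libraries, and 5 and 6 of the 12 had 0 counts in these groups. The sum over erythroid and platelet genes was 0 to 17 CPM in tumor-free and 16.5 to 40.9 CPM in lymphatic libraries. Of these Hba-a2, an alpha globin with a near-identical copy, was at 0 counts in all tumor-free libraries and at 1.11, 2.1, 6.42 and 2.07 CPM in the lymphatic ones, at least 44.6-fold higher (edgeR adjusted p = 0.0163), and was not called without lymphatic 3 (edgeR adjusted p = 0.0581). For stroma and endothelium the sum was 7.99 to 9.64 CPM in tumor-free and 0.875 to 3.21 CPM in lymphatic libraries, and no member was called by edgeR (0 higher and 2 lower at an unadjusted p under 0.05, 1 lower by DESeq2, 0 by limma voom). Among genes of plasma cells 1 of 5 tested was higher (Irf4), among those of dendritic cells 1 of 10 (Bst2) and among those of ILC2 and ILC3 2 of 9 (Il23r and Kit). Il23r and Kit were lost in 9 and 7 of the 12 fits without 1 library, and neither was called with the B cell covariate or without tumor-free 1, tumor-free 2, tumor-free 4, lymphatic 1, lymphatic 4 or hematogenous 3. The parts of these cell types in the results were not tested.

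**Figure D5:**
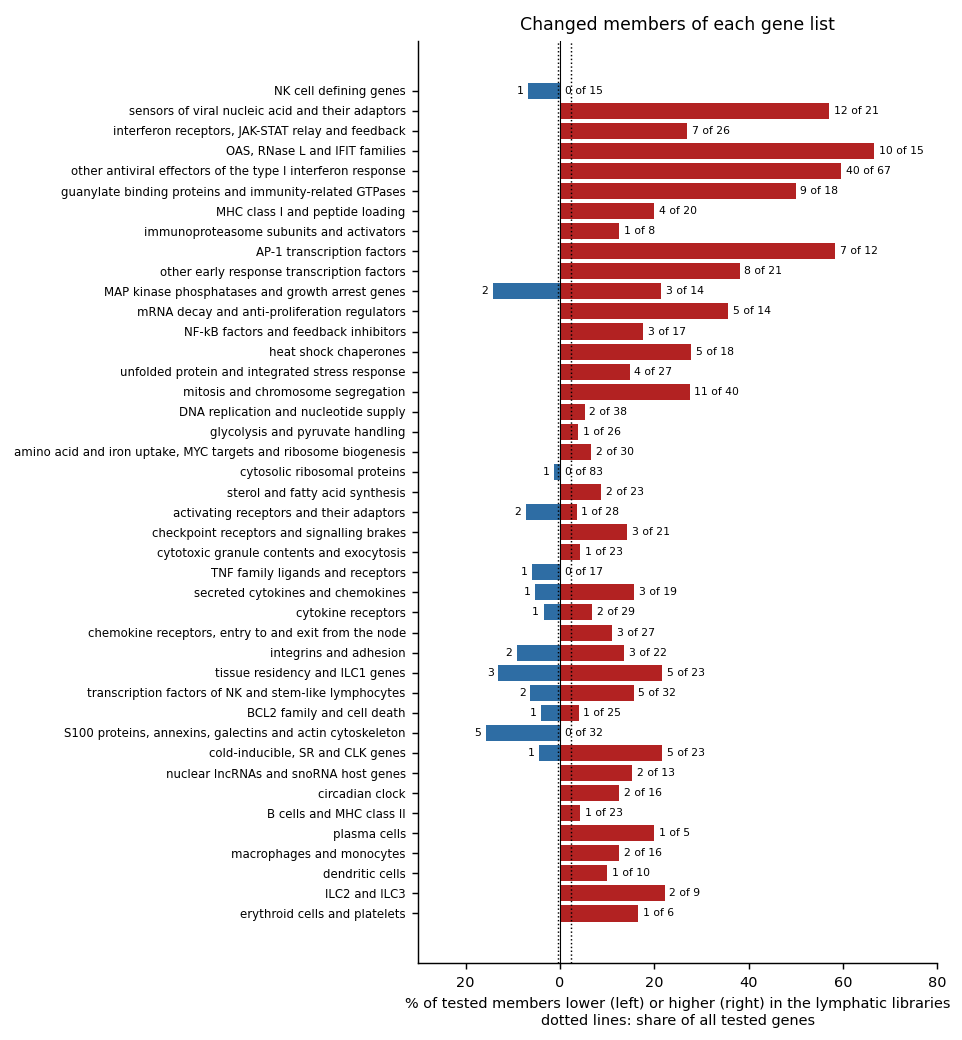
Share of the tested members of each gene list that were higher (right, red) or lower (left, blue) in lymphatic than in tumor-free libraries, for the lists with at least 1 called gene. The numbers beside the bars are counts, and the dotted lines mark the shares among all tested genes, 2.32% and 0.418%. The longest red bars belong to the OAS and IFIT families (10 of 15), the other antiviral effectors (40 of 67) and the AP-1 factors (7 of 12).

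The 4 lymphatic libraries differed in which of these gene groups was highest. Of the 78 higher interferon genes 63 (80.8%) had their highest lymphatic level in lymphatic 3, where 29.8% of all tested genes had theirs. Of the 26 higher early response genes 22 (84.6%) were highest in lymphatic 2, against 30.2% of all genes, as were all 9 higher chaperone and stress genes and the 3 higher cytokine genes. Of the 13 higher genes of mitosis and replication 10 (76.9%) were highest in lymphatic 4, against 20.1% of all genes. Lymphatic 1, in which 19.9% of all genes were highest, was the top library for 1 of the 78 interferon genes and for none of the early response genes. Genes of a group share the library they were measured in, so these counts describe the 4 libraries and were not tested.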

How the data were processed

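RNA of NK cells sorted from lymph nodes was sequenced in 12 libraries, 8 of them compared here. Per the labels, libraries were stranded, made from poly(A) RNA with the NEBNext UltraExpress kit and read from a single end. The build was GRCm39 and the tools were HTSeq 2.0.2, HISAT2 2.1.0, Trimmomatic 0.39 and FastQC 0.11.9, per the submitters' processing notes. No source used here gives the annotation release or whether counting used strand, so overlapping and antisense genes may share reads. Each deposited file gives raw counts for 56748 gene IDs. The 5 summary lines of each file, 27.9% to 44.6% of its reads, were left out. Symbols were matched by gene ID to the GENCODE M21 annotation of GRCm38, which named 91.8% of the IDs and 99.5% of the counts. Its exon positions gave the gene lengths of the length correction, for 97.76% of the genes tested. Reads carried no molecular identifiers, so bounds for genes at 0 (a floor of 3 counts over the group) cover counting error only.

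The members and lists were chosen with earlier results of these data known. Counts were filtered by group (filterByExpr), scaled by TMM and fitted over all 12 libraries with edgeR 4.0.16 (R 4.3.3, robust quasi-likelihood F test, 1 mean per group). The adjusted p is that of Benjamini and Hochberg over 16016 genes, and the standard error (SE) is the size of the log2 fold change over the square root of F. Alternatives, whose effect the closing section gives, were other scalings, other filters, equal depth, a length correction, a replicate block, a covariate from the B cell genes (their mean level), the compared groups alone, limma 3.58.1 (voom), DESeq2 1.42.0, stricter thresholds, leaving out each library, and, chosen after the data were seen, tumor-free 3 as the lone tumor-free library. The tests were checked on simulated data, where 5 of 130 calls were false. Spread was simulated from the level of each gene alone, with no library that stood apart as tumor-free 1, 2 and 4 did. The simulation therefore does not give the rate of false calls in these data. In the same simulation the fit called 59% of 100 genes changed 2-fold and 66% of 100 genes changed 4-fold, so a gene that was not called may still differ. Genes were named by rule: the 10 higher and 10 lower with the largest fold change, and the same number in no list with the smallest adjusted p, among genes with a mean of at least 5 CPM, no overlap between groups and a call in all 12 fits without 1 library; up to 6 called genes per list; and a set of marker genes, 1 of which is not reported here. Single genes and categories named beside these, such as members listed without values, were chosen after their values were seen.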

Additional observations from a re-analysis of the deposited data

Results flagged for a closer look

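In 29 of 352 groups of 4 libraries 1 library stood far from the other 3 (Dixon's test at the 95% level). For independent values from a normal distribution the test gives about 1 in 20. The genes here were named by rule and share their libraries, so that rate cannot show an excess. All values are levels in TMM-scaled CPM unless stated. Lymphatic 2 stood apart for 7 genes. It was high for the chaperones Hspa5 (1540) and Hspa8 (2568), for Bhlhe40 (679.7), Nr4a1 (378) and Gadd45b (55.2) and for the transporter chain Slc3a2 (162), and low for Bcl6 (52.9). Lymphatic 4 stood high for Kif11 (38.5), and lymphatic 3 for Cd68 (10.1) and for the percentage of reads not aligned (8.99).

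Tumor-free 3, the deepest library of its group, stood apart in its gene counts (23674960), in the number of genes with a count at equal depth (20889) and for 7 genes. It was high for Atf3 (0.682), Bend4 (1.53), Ddx5 (1972), Ikzf2 (76.3), Pax5 (15.4) and the adhesion gene Pecam1 (124.8), and low for Map1b (1.11). Tumor-free 1 stood high for Gzmb (678) and low for Dusp1 (3.74) and Tgfb3 (17.8). Tumor-free 2 was high for Ier5 (140) and Rgs1 (86.7) and low for Ms4a6b (170.6) and Nlrc5 (275). Tumor-free 4 was high for Tob1 (31.1) and the percentage of globin counts (0.00113) and low for Stip1 (88.8).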

How the results depend on the processing

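Against tumor-free nodes, where 439 genes were called, other scalings, other filters, equal depth, a length correction, the compared groups alone and limma voom gave 369 to 625 genes, within 1.5 times of it. The total was 190 with the B cell covariate, 729 with DESeq2, 31 with tumor-free 3 as the lone tumor-free library, 195 at an adjusted p under 0.01 and 243 with a change of at least 2-fold. Leaving out 1 library gave 255 to 634 genes, with 255 without lymphatic 4 and 634 without tumor-free 3. Against the hematogenous libraries (1417 genes) limma voom gave 2923 genes, an adjusted p under 0.01 gave 477, a change of at least 2-fold 346 and leaving out 1 library 620 to 1572. The cause was not tested, except that the stricter thresholds call fewer genes by their construction.

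No pairing of the samples by replicate number was seen. Correlations of the deviations of same-numbered lymphatic and tumor-free libraries were -0.039, 0.0391, -0.0164 and 0.00822, and not every library correlated best with its own number. These correlations do not show that same-numbered samples shared no batch. A replicate block gave 362 genes. Among values that did not pass the test, the sign turned for Cd3e (-0.10) and Prf1 (0.0924) with the B cell covariate and for Cd3e (-0.38) and Lyz2 (0.17) with tumor-free 3 alone. Without 1 library, the log2 fold change of Prf1 ran from -0.338 to 0.00532, the difference in the percent of reads outside features from -0.25 to 2.98 and that in the percent ribosomal protein genes take of the counts from -0.693 to 0.010. Of the 161 called genes named by the rule 102 were called in every fit without 1 library, and of these 18 were lost with the B cell covariate, 3 with the compared groups alone and 11 with limma voom. Depth limits the tumor-free group most, at 6654215 to 8355021 counts in 3 of its libraries, so levels near 1 count in those libraries are the least precise.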
